A study of Rattus norvegicus with 12 samples.

Results

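The sterol and fatty acid synthesis genes examined here are 40 rat genes chosen by function: the regulators that switch on sterol and fatty acid synthesis, the enzymes of the mevalonate pathway and of sterol synthesis, proteins that move or export sterols, and enzymes that make and modify fatty acids. They were among 16581 genes named through RefSeq accessions on the arrays. The 40 genes had 52 of the 45598 probes. Tests covered the probes whose signal exceeded background clearly on each of the 3 arrays of 1 group or more, which held for 51 of the 52 probes, for 39 of the 40 genes and for 24279 probes in all. Where a gene had several tested probes, the brightest on average was used.

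The study exposed L6 myotubes, multinucleate muscle cells formed in culture from a rat skeletal muscle cell line, to small molecules. The 12 1-colour arrays fell into 4 groups of 3: control cells given only the solvent DMSO, and cells given GR24, pinosylvin or resveratrol at 60 µM in DMSO, all for 24 h. The labels give 6 days of differentiation before treatment in every group. GR24 is a synthetic analog of the strigolactone plant hormones. Pinosylvin and resveratrol are plant stilbenes, and resveratrol carries an additional hydroxyl group on the ring that is unsubstituted in pinosylvin. The design asks how each compound changes gene expression against the shared control arrays, and the 3 compounds can also be set against each other at matched dose and time. The labels describe independent experiments on the same batch of cells, so p-values measure the spread between these samples, which may be in part technical.

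Cells make cholesterol from acetyl-CoA through the mevalonate pathway, and the genes for nearly all of its enzymes are switched on by SREBP transcription factors. When sterols are scarce the escort protein Scap carries SREBP from the endoplasmic reticulum to the Golgi, where it is cut and released to the nucleus, while ample sterols make Scap bind the Insig proteins and keep SREBP in place. Oxysterols in turn activate the liver X receptors (LXR), which raise genes of cholesterol export and the SREBP-1c form that drives fatty acid synthesis, and muscle uses both branches to supply membranes and fuel stores.

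Of the 40 members, 38 were well above background on all 12 arrays. Levels below are log2 signals relative to each array's 75th percentile, set at 0, and differences are log2 fold changes from limma with p-values adjusted over all 24279 tested probes by the Benjamini-Hochberg method. A gene was called higher or lower where the adjusted p was under 0.05. The median SD within a group over members was 0.12.

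GR24 changed 28 of 39 tested members against control, 9 higher and 19 lower, where 57.1% of all tested probes were called (31.5% higher and 25.5% lower). The share of members called lower was above that of all probes, and the share called higher was below it. The median log2 fold change of the members was -0.28, beside 0.027 over all probes. Taking the 75th percentile over spots instead of probes gave 14 higher and 18 lower members in place of 9 and 19, where 38% of all probes were then called higher and 22.1% lower, so the share of higher members was near that of all probes. The members' median was then -0.18 beside 0.13 over all probes, and it was -0.18 beside 0.083 in the deposited values. Pinosylvin changed 31 of 39 members, 4 higher and 27 lower, against 16.6% of all probes (8.28% higher and 8.27% lower). Their median was -0.64, beside 0.054. Resveratrol changed 9 of 39 members, 0 higher and 9 lower by limma (1 and 14 at an unadjusted p under 0.05), against 17% of all probes (7.99% higher and 8.99% lower), with a median of -0.15 beside 0.01, and of -0.056 without control replicate 1. With resveratrol 23.1% of the members were thus called, all lower, but without control replicate 1 or without resveratrol replicate 3 it was 7.69%, beside 6.37% and 6.38% of all probes called lower. These 3 comparisons share the control arrays, so their values stand side by side and are not independent.

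The 2 slides of arrays each held all 4 groups, replicates 1 and 2 on the one and replicate 3 on the other. Members' median log2 fold changes on slide 1 and slide 2 were -0.25 and -0.25 for GR24, -0.74 and -0.52 for pinosylvin, and -0.16 and -0.12 for resveratrol. With the slide as a block these medians were unchanged, and 19 members (48.7%) were called for resveratrol, beside 28.3% of all probes. With the replicate number as a block 18 members were called for resveratrol in place of 9, 4 higher and 14 lower (10.3% and 35.9%), while the share of all probes called also rose, to 27.9% (14.1% higher and 13.8% lower). The resveratrol count was 3 (7.69%) without control replicate 1 or without resveratrol replicate 3, where 11.8% and 12.6% of all probes were called, 4 (10.3%) without control replicate 2, where 12.5% were, and 5 (12.8%) without resveratrol replicate 1, where 12.1% were. The members called in these fits were all lower. In the same order, 6.37%, 6.38%, 6.51% and 7.15% of all probes were called lower. The resveratrol calls of Idi1, Sqle and Elovl6 were kept with each of the 12 arrays left out in turn.

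Some calls against control were lost in other fits. With dim probes kept in the adjustment these were Acly, Cyp51 and Mvk for GR24, Srebf1, Abcg1, Fads1 and Mvk for pinosylvin, and all but Idi1, Sqle and Elovl6 for resveratrol. When each treatment was fitted with the control arrays alone they were Acly and Cyp51 for GR24, Srebf1, Abca1, Abcg1 and Mvk for pinosylvin, and Srebf2, Dhcr7, Ebp and Scd for resveratrol. Both Mvk calls were lost in the deposited values, and the Srebf2 call for resveratrol on slide 1 alone (-0.25). Calls were gained without 1 array in Fasn without control replicate 2 (GR24 -0.28, pinosylvin -0.49), where leaving out control replicate 1 instead gave 0.011 and -0.20, in Fads2 without GR24 replicate 3 (GR24 -0.26), where slide 2 alone gave 0.05, and in Tm7sf2 without control replicate 3 (GR24 -0.48), Scap without pinosylvin replicate 3 (pinosylvin 0.48), Abca1 without control replicate 3 (resveratrol -0.66), where slide 2 alone gave 0.022, and, for resveratrol, Hsd17b7, Insig1 and Mvd without GR24 replicate 3 and Mvd without resveratrol replicate 2 (-0.57).

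**Figure D1:**
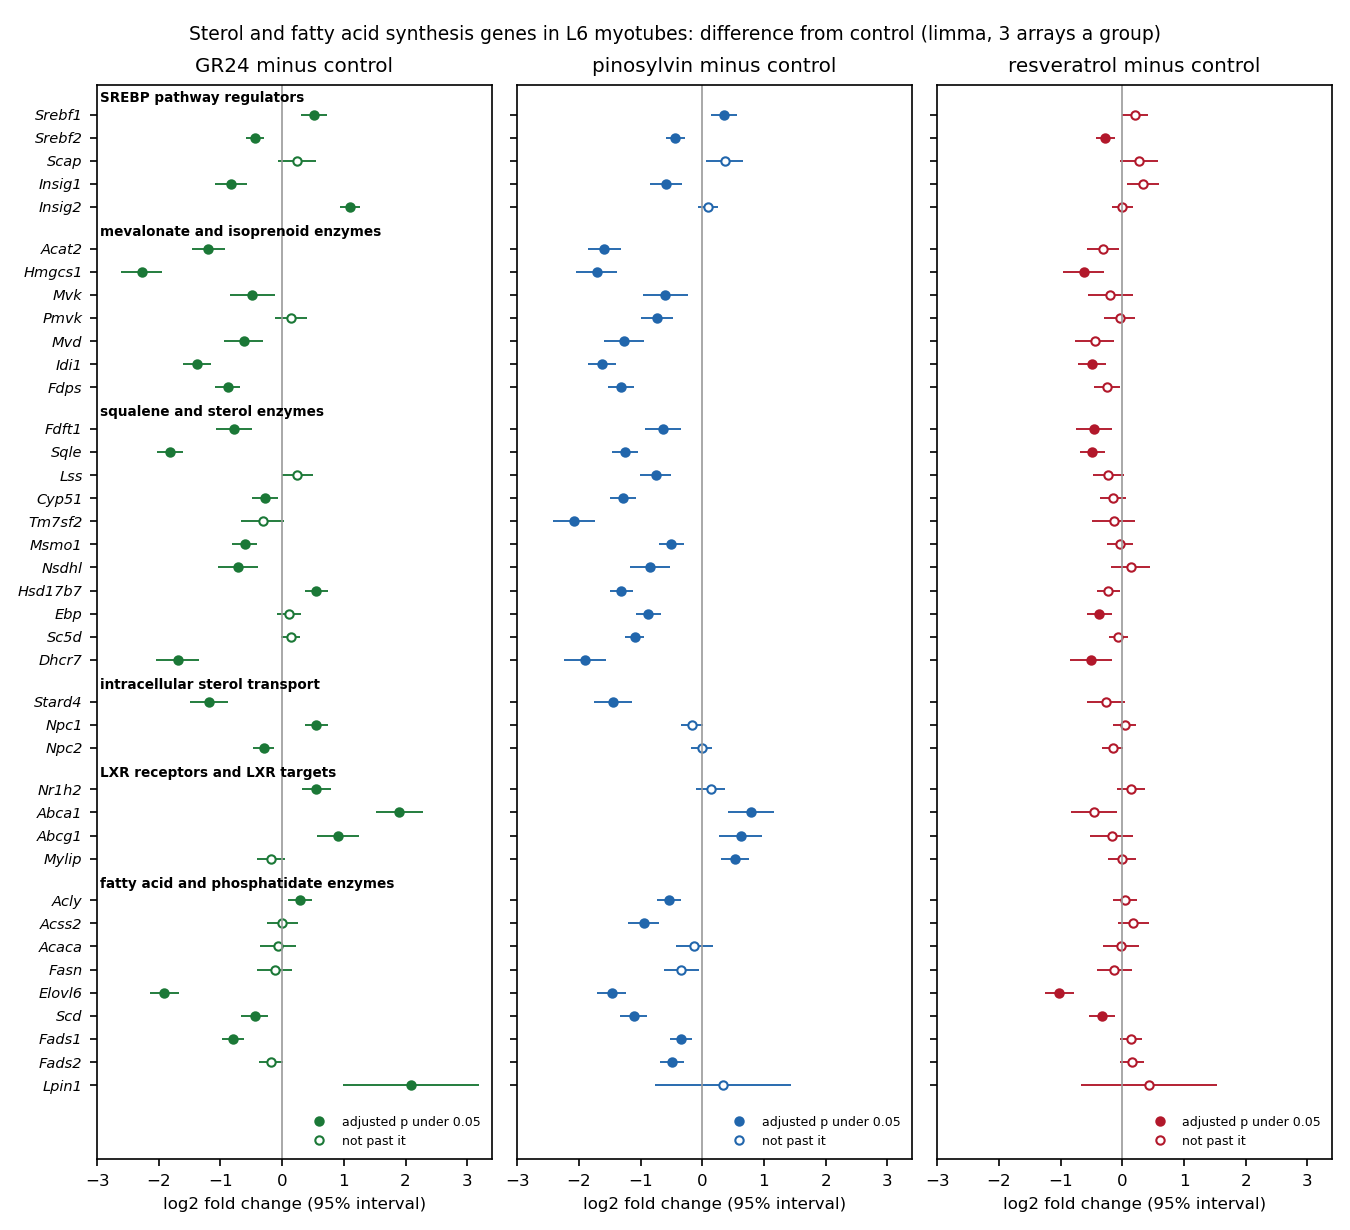
Log2 fold change of each tested member against control, with 95% intervals, for GR24, pinosylvin and resveratrol (3 arrays a group). Filled points passed an adjusted p of 0.05; GR24 and pinosylvin have most filled points left of 0, with medians of -0.28 and -0.64, and resveratrol has 9, all left of 0.

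The myotube label was checked against 10 muscle markers, all of them tested. Their summed level, in multiples of each array's 75th percentile, was 829, 886 and 768 in the control arrays, 311, 297 and 291 with GR24, 931, 953 and 879 with pinosylvin and 683, 699 and 654 with resveratrol, and the brightest probe was that of Myh3. Of these 10 markers, 9 were lower with GR24 (median log2 fold change -1.95), 2 were higher with pinosylvin, and 5 were lower with resveratrol. Of all probes 31.5%, 8.28% and 7.99% were higher with GR24, pinosylvin and resveratrol, and 25.5%, 8.27% and 8.99% were lower. Markers of undifferentiated muscle cells, 7 of 9 tested with Cdk1 the brightest, summed to 63.9, 59.8 and 58.4 in control, 12.6, 12.8 and 11.9 with GR24, 25.3, 25.4 and 23.7 with pinosylvin and 35.9, 39.3 and 35.8 with resveratrol. Of these 7, GR24 lowered 4 and raised 1, pinosylvin lowered 5 and resveratrol lowered 3, beside the same shares of all probes. Their medians were -0.88, -0.77 and -0.033, beside 0.027, 0.054 and 0.01 over all probes. The 7 fibroblast markers, led by Col1a2, summed to 489, 530 and 492 in control, 295, 302 and 285 with GR24, 463, 493 and 493 with pinosylvin and 428, 444 and 440 with resveratrol. GR24 lowered 6 of the 7 and raised 1, pinosylvin raised 2 and lowered 2, and resveratrol raised 1 and lowered 1. Their median log2 fold changes were -0.81, 0.068 and -0.18. Among the adipocyte markers 2 of 7 were tested, Adipoq, Lep and Cidec were well above background on none of the 12 arrays, and the sum was 3.08, 3.29 and 2.87 in control, 5.27, 5.31 and 4.87 with GR24, 4.12, 4.08 and 3.68 with pinosylvin and 3.87, 3.62 and 3.68 with resveratrol, with Cebpa the brightest. Of the 2 tested adipocyte markers GR24 raised 1, pinosylvin 2 and resveratrol 1. The sums took in every marker on the arrays, tested or not. These were 8 of 9 markers of undifferentiated muscle cells and 6 of 7 of adipocytes. The brightest probes weigh most in these sums, and signals of different probes do not rank transcripts by amount. With pinosylvin the sums of the myotube and fibroblast markers overlapped control. Within each replicate number the pinosylvin myotube sum was above control, and 9 of the 10 myotube markers had positive values (median 0.21). The part of these marker levels in the results was not tested. In RNA from whole cultures, fewer cells of a type and less RNA per cell cannot be told apart.

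Among the 5 regulators of the SREBP pathway, GR24 raised 2 and lowered 2, pinosylvin raised 1 and lowered 2, and resveratrol lowered 1, where 57.1%, 16.6% and 17% of all probes were called. Srebf2, which encodes the SREBP that mainly drives cholesterol synthesis, had levels of 4.16, 4.10 and 4.08 in control, 3.69, 3.74 and 3.60 with GR24, 3.70, 3.68 and 3.65 with pinosylvin and 3.80, 3.95 and 3.76 with resveratrol. All 9 treated arrays lay below all 3 control arrays. Its log2 fold change was -0.44 (SE 0.068, adjusted p = 0.000264) with GR24, -0.44 (adjusted p = 0.00157) with pinosylvin and -0.28 (adjusted p = 0.0191) with resveratrol. The resveratrol call was lost without control replicate 1 (-0.25), resveratrol replicate 1 (-0.26) or resveratrol replicate 3 (-0.24). Srebf1, the gene of the SREBP-1 forms that favour fatty acid synthesis, read 4.51, 4.61 and 4.56 in control, 5.15, 5.09 and 4.996 with GR24, 4.77, 4.86 and 5.11 with pinosylvin and 4.80, 4.66 and 4.85 with resveratrol. Every treated array was above the control arrays, with GR24 and pinosylvin overlapping each other. The differences were 0.52 (SE 0.094, adjusted p = 0.000813) with GR24, 0.35 (adjusted p = 0.0289) with pinosylvin and 0.21 (adjusted p = 0.18) with resveratrol. For pinosylvin the call was lost without control replicate 1 (0.33), control replicate 3 (0.35), pinosylvin replicate 2 (0.38) or pinosylvin replicate 3 (0.25), with quantile normalization (0.30) and on slide 1 alone (0.25), and the value was 0.55 on slide 2 alone. The second Srebf1 probe gave 0.35 (adjusted p = 0.0662) with pinosylvin.

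Scap, the sterol-sensing escort of SREBP, stood at 3.55, 3.37 and 3.21 in control, 3.70, 3.70 and 3.43 with GR24, 3.90, 3.80 and 3.50 with pinosylvin and 3.70, 3.78 and 3.45 with resveratrol. Within each replicate number the treated arrays were above control, but all 3 treated groups overlapped control. None of the 3 differences passed: 0.24 (adjusted p = 0.168) with GR24, 0.36 (adjusted p = 0.104) with pinosylvin and 0.27 (adjusted p = 0.229) with resveratrol. With the replicate number as a block all 3 passed, with an adjusted p of 0.0062 (range over all alternatives 0.0053 to 0.417) for GR24, 0.00265 (range over all alternatives 0.0018 to 0.291) for pinosylvin and 0.0104 (range over all alternatives 0.00848 to 0.505) for resveratrol. Insig1, an SREBP target whose product holds Scap in the endoplasmic reticulum, read 5.58, 5.52 and 5.30 in control, 4.77, 4.73 and 4.40 with GR24, 4.86, 4.97 and 4.79 with pinosylvin and 5.91, 5.82 and 5.67 with resveratrol. GR24 and pinosylvin arrays were all below control and resveratrol arrays all above it. It fell 1.78-fold with GR24, -0.83 (SE 0.12, adjusted p = 0.00013), and also with pinosylvin, -0.59 (adjusted p = 0.00637). The resveratrol value, 0.33 (adjusted p = 0.0812), did not pass, whereas with the replicate block the adjusted p was 0.00529 (range over all alternatives 0.00292 to 0.224), and a second Insig1 probe gave 0.40 (adjusted p = 0.0136). Insig2, which encodes the related retention protein, was at -0.55, -0.68 and -0.66 in control, 0.49, 0.56 and 0.36 with GR24, -0.52, -0.60 and -0.49 with pinosylvin and -0.53, -0.70 and -0.65 with resveratrol. Only the GR24 arrays stood apart, all above every other array. Insig2 rose 2.14-fold with GR24, 1.10 (SE 0.076, adjusted p = 6.75e-07), and differed by 0.094 (adjusted p = 0.472) with pinosylvin and 0.0023 (adjusted p = 0.993) with resveratrol. GR24 against pinosylvin gave 1.01 (adjusted p = 1.5e-06).

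The 7 enzymes of the mevalonate and isoprenoid steps mostly fell with GR24 and pinosylvin: GR24 lowered 6, pinosylvin 7 and resveratrol 2, where 25.5%, 8.27% and 8.99% of all probes were lower. Their medians were -0.88, -1.32 and -0.31, beside 0.027, 0.054 and 0.01 over all probes. Hmgcs1, the cytosolic synthase that commits acetyl units to the pathway, had levels of 6.77, 6.85 and 6.46 in control, 4.48, 4.59 and 4.16 with GR24, 4.87, 5.18 and 4.90 with pinosylvin and 6.08, 6.24 and 5.89 with resveratrol. The control arrays were the highest, resveratrol lay below them, and GR24 and pinosylvin were lowest, with no overlap between any treated group and control. It was 4.85-fold lower with GR24, -2.28 (SE 0.15, adjusted p = 4.6e-07), 3.27-fold lower with pinosylvin, -1.71 (SE 0.15, adjusted p = 3.07e-05), and 1.54-fold lower with resveratrol, -0.62 (SE 0.15, adjusted p = 0.0168). The resveratrol call was lost without control replicate 1 (-0.58), control replicate 2 (-0.54) or resveratrol replicate 3 (-0.53). Idi1, the isomerase that makes dimethylallyl diphosphate, read 3.79, 3.91 and 3.64 in control, 2.38, 2.53 and 2.31 with GR24, 1.96, 2.25 and 2.25 with pinosylvin and 3.24, 3.30 and 3.33 with resveratrol. Each treated array was below every control array. Its log2 fold changes were -1.37 (SE 0.10, adjusted p = 1.18e-06) with GR24, -1.63 (SE 0.10, adjusted p = 3.12e-06) with pinosylvin and -0.49 (SE 0.10, adjusted p = 0.00815) with resveratrol, the last being -0.30 on slide 2 alone. Acat2, the thiolase that joins acetyl-CoA units, was at 5.56, 5.45 and 5.51 in control, 4.31, 4.51 and 4.11 with GR24, 3.93, 4.04 and 3.79 with pinosylvin and 5.09, 5.40 and 5.11 with resveratrol. GR24 and pinosylvin arrays were well below control, and resveratrol arrays were slightly below it. The changes were -1.20 (SE 0.12, adjusted p = 9.77e-06) with GR24 and -1.59 (SE 0.12, adjusted p = 1.01e-05) with pinosylvin. With resveratrol the value was -0.31 (adjusted p = 0.106), and 0.0332 (range over all alternatives 0.029 to 0.272) was the adjusted p with the replicate block. Of the 3 other Acat2 probes 2 passed for resveratrol, at -0.44 (adjusted p = 0.00305) and -0.37 (adjusted p = 0.0223), and 1 did not, at -0.42 (adjusted p = 0.172). The mean over the 4 probes was -0.38 (adjusted p = 0.029).

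The other 4 enzymes of these steps were Mvk and Pmvk, the kinases of mevalonate, Mvd, the decarboxylase, and Fdps, the farnesyl diphosphate synthase. Pinosylvin lowered all 4, with log2 fold changes from -1.32 in Fdps to -0.60 in Mvk. GR24 lowered Fdps, Mvd and Mvk, between -0.88 and -0.48, and the value of Pmvk was 0.15 (adjusted p = 0.311), with an adjusted p of 0.0252 (range over all alternatives 0.0194 to 0.777) under the replicate block. The Mvk calls depended on which arrays were used. The GR24 call, with a value of -0.25 on slide 2 alone, was lost without control replicate 1 (-0.42), control replicate 2 (-0.38), GR24 replicate 2 (-0.50) or GR24 replicate 3 (-0.44), and the pinosylvin call without control replicate 1 (-0.54), control replicate 2 (-0.49), pinosylvin replicate 1 (-0.63) or pinosylvin replicate 3 (-0.47). With resveratrol none of the 4 passed, with values from -0.45 to -0.044. Under the replicate block 2 of these did: Mvd, -0.45, had an adjusted p of 0.00277 (range over all alternatives 0.00257 to 0.18), and Fdps, -0.25, of 0.00501 (range over all alternatives 0.00501 to 0.265).

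Of the 11 enzymes from squalene to cholesterol, pinosylvin lowered all 11 (median -1.09), GR24 lowered 6 and raised 1 (median -0.32), and resveratrol lowered 4 (median -0.23), beside the same shares and medians of all probes. With GR24 the 7 of 11 called are near the 57.1% of all probes. Sqle, the squalene epoxidase and a rate-limiting step, had levels of 4.79, 4.82 and 4.60 in control, 2.94, 3.03 and 2.79 with GR24, 3.39, 3.62 and 3.44 with pinosylvin and 4.29, 4.29 and 4.18 with resveratrol. The groups did not overlap, with control highest and GR24 lowest. It was 3.53-fold lower with GR24, -1.82 (SE 0.092, adjusted p = 6.7e-08), and changed by -1.25 (SE 0.092, adjusted p = 9.5e-06) with pinosylvin and -0.48 (SE 0.092, adjusted p = 0.00508) with resveratrol. Dhcr7, the reductase of the last step to cholesterol, read 2.70, 2.64 and 2.44 in control, 0.98, 1.10 and 0.61 with GR24, 0.66, 0.91 and 0.51 with pinosylvin and 2.07, 2.30 and 1.89 with resveratrol. All treated arrays were below all control arrays, and GR24 and pinosylvin overlapped. The log2 fold changes were -1.69 (SE 0.16, adjusted p = 5.75e-06) with GR24, -1.90 (SE 0.16, adjusted p = 1.97e-05) with pinosylvin and -0.51 (SE 0.16, adjusted p = 0.0499) with resveratrol. The last of these was close to the threshold and was lost without control replicate 1 (-0.45), control replicate 2 (-0.48), GR24 replicate 1 (-0.51), pinosylvin replicate 1 (-0.51), resveratrol replicate 1 (-0.50) or resveratrol replicate 3 (-0.41).

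Tm7sf2, a sterol reductase that acts on intermediates after lanosterol, was at 3.27, 3.28 and 2.79 in control, 2.83, 2.90 and 2.65 with GR24, 1.09, 1.18 and 0.83 with pinosylvin and 3.08, 3.11 and 2.75 with resveratrol. The pinosylvin arrays were far below all others, and GR24 and resveratrol overlapped control. It fell 4.23-fold with pinosylvin, -2.08 (SE 0.16, adjusted p = 1.05e-05), the largest decrease with pinosylvin among the 39 tested members. The values were -0.32 (adjusted p = 0.109) with GR24 and -0.14 (adjusted p = 0.647) with resveratrol, and for GR24 the adjusted p was 0.00174 (range over all alternatives 0.00119 to 0.288) with the replicate block. Hsd17b7, a sterol ketone reductase named on every array after its values were seen, read 1.77, 1.71 and 1.75 in control, 2.39, 2.38 and 2.12 with GR24, 0.38, 0.44 and 0.47 with pinosylvin and 1.49, 1.63 and 1.43 with resveratrol. GR24 arrays were above every control array, and both pinosylvin and resveratrol arrays were below every control array. It rose with GR24, 0.55 (SE 0.084, adjusted p = 0.000239), fell with pinosylvin, -1.31 (SE 0.084, adjusted p = 3.72e-06), and did not pass with resveratrol, -0.23 (adjusted p = 0.0993). The resveratrol value passed in 4 of 24 alternatives, the slide block among them (adjusted p over all alternatives 0.0433 to 0.257). GR24 against pinosylvin gave 1.86 (adjusted p = 3.83e-08). The second Hsd17b7 probe gave 1.38 (adjusted p = 1.79e-05) for GR24, and the mean over both probes was 0.97.

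**Figure D2:**
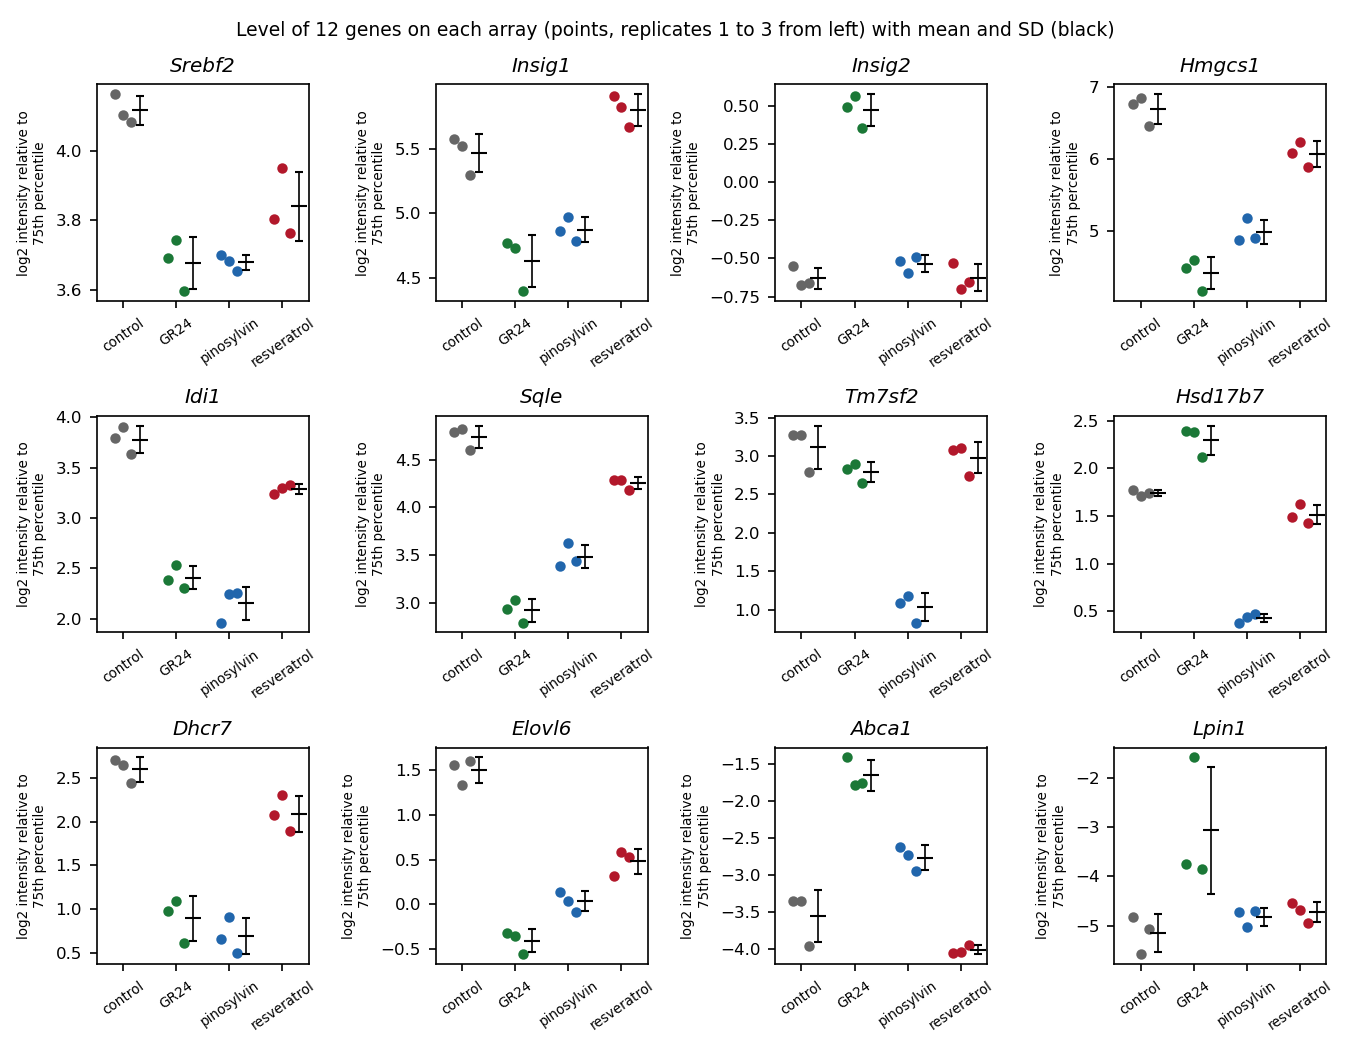
Level on each of the 12 arrays, as log2 signal relative to the array's 75th percentile, for 12 members in control, GR24, pinosylvin and resveratrol cultures, with points for arrays and black bars for the group mean and SD. Hmgcs1, Idi1, Sqle, Dhcr7 and Elovl6 are below control on every treated array, Tm7sf2 is low only on the pinosylvin arrays, and Insig2 is high only on the GR24 arrays.

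The other 7 sterol enzymes were Fdft1, the squalene synthase, Lss, the lanosterol synthase, Cyp51, the lanosterol demethylase, Msmo1 and Nsdhl, which remove methyl groups, Ebp, an isomerase, and Sc5d, a desaturase. Pinosylvin lowered each of them, from -1.28 in Cyp51 to -0.50 in Msmo1, and the value of Fdft1 was -0.39 on slide 2 alone. GR24 lowered Fdft1, Nsdhl, Msmo1 and Cyp51, from -0.79 to -0.28, and the values of Ebp, Sc5d and Lss, 0.11 to 0.24, did not pass. Lss, with a GR24 value of 0.24 (adjusted p = 0.0932), passed with the replicate block, where the adjusted p was 0.0144 (range over all alternatives 0.00947 to 0.291), and its second probe gave 0.24 (adjusted p = 0.0428). The Lss value was 0.16 without control replicate 3 and 0.31 without GR24 replicate 3. Ebp and Sc5d passed in GR24 with the 75th percentile over spots (0.21 and 0.24) and in the authors' deposited values (0.22 and 0.21). Sc5d passed also with the slide as a block and without GR24 replicate 3 (0.19). The GR24 call of Cyp51 was lost without control replicate 1 (-0.25), control replicate 2 (-0.24) or GR24 replicate 3 (-0.19), in the deposited values (-0.18) and with the percentile over spots (-0.18). The second Cyp51 probe fell with GR24, -0.36 (adjusted p = 0.00992). Resveratrol lowered Fdft1, -0.46 (adjusted p = 0.0388), and Ebp, -0.37 (adjusted p = 0.0169). Fdft1 lost that call without any 1 of the control or resveratrol arrays, GR24 replicate 1 or pinosylvin replicate 2 (-0.52 to -0.42), and with quantile normalization or the percentile over spots (-0.47). Ebp lost it without control replicate 1 (-0.35), control replicate 2 (-0.31) or resveratrol replicate 3 (-0.31). For Lss with resveratrol, -0.23, the adjusted p was 0.0434 (range over all alternatives 0.0315 to 0.454) with the replicate block.

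The next 3 members move sterols within the cell. Stard4, a cytosolic sterol transfer protein and SREBP target, fell with GR24, -1.18 (SE 0.14, adjusted p = 3.83e-05), and with pinosylvin, -1.45 (SE 0.14, adjusted p = 6.44e-05), and its resveratrol value was -0.26 (adjusted p = 0.251). A second Stard4 probe was well above background on 0 of 3 GR24 arrays and 1 of 3 pinosylvin arrays. Npc1, the membrane protein of lysosomal cholesterol export, rose with GR24, 0.56 (SE 0.084, adjusted p = 0.000214), and its values were -0.17 (adjusted p = 0.221) with pinosylvin and 0.043 (adjusted p = 0.819) with resveratrol. Npc2, its soluble partner, fell with GR24, -0.30 (SE 0.076, adjusted p = 0.00623), a call lost on slide 1 alone (-0.24), and its values were -0.0041 (adjusted p = 0.984) with pinosylvin and -0.16 (adjusted p = 0.207) with resveratrol.

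Of the 4 tested LXR receptors and targets, GR24 raised Abca1, Abcg1 and Nr1h2, where 31.5% of all probes were higher, and pinosylvin raised Abca1, Abcg1 and Mylip, where 8.28% were, while 0 of the 4 were called by limma for resveratrol and 1, Abca1, had an unadjusted p under 0.05. Abca1, the transporter that exports cholesterol to apolipoproteins, had levels of -3.35, -3.34 and -3.96 in control, -1.41, -1.79 and -1.75 with GR24, -2.62, -2.73 and -2.94 with pinosylvin and -4.05, -4.03 and -3.94 with resveratrol. GR24 and pinosylvin arrays were above all control arrays, and resveratrol arrays overlapped the lowest control array. It rose 3.73-fold with GR24, 1.90 (SE 0.17, adjusted p = 4.58e-06), and 1.73-fold with pinosylvin, 0.79 (SE 0.17, adjusted p = 0.01). These values were smaller with normexp background correction, 1.10 and 0.41, and the pinosylvin call was lost in a fit of only its own and the control arrays, with the same difference of 0.79. The resveratrol value was -0.46 (adjusted p = 0.0968), or 0.022 on slide 2 alone, and the adjusted p was 0.0442 (range over all alternatives 0.00829 to 0.433) with the replicate block. Abcg1, a transporter that passes cholesterol to lipoprotein particles, read -1.49, -2.06 and -1.66 in control, -0.68, -0.94 and -0.87 with GR24, -0.94, -1.17 and -1.23 with pinosylvin and -1.74, -2.13 and -1.86 with resveratrol. GR24 and pinosylvin arrays were above all control arrays, and resveratrol overlapped control. The differences were 0.91 (SE 0.16, adjusted p = 0.000533) with GR24, 0.62 (SE 0.16, adjusted p = 0.0211) with pinosylvin and -0.17 (adjusted p = 0.536) with resveratrol. The pinosylvin call was lost without control replicate 2 (0.46), pinosylvin replicate 1 (0.53) or pinosylvin replicate 2 (0.65), and on slide 1 alone (0.72).

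Mylip, an LXR target that marks lipoprotein receptors for degradation, was at 2.32, 2.32 and 2.40 in control, 2.16, 2.18 and 2.15 with GR24, 2.76, 2.77 and 3.09 with pinosylvin and 2.40, 2.16 and 2.47 with resveratrol. The pinosylvin arrays were above every other array, and the GR24 arrays were below every control array. It rose with pinosylvin, 0.53 (SE 0.10, adjusted p = 0.00594), and its values were -0.18 (adjusted p = 0.163) with GR24 and -0.0023 (adjusted p = 0.995) with resveratrol. Nr1h2, which encodes LXR beta, read 3.49, 3.49 and 3.26 in control, 4.01, 3.98 and 3.92 with GR24, 3.66, 3.63 and 3.35 with pinosylvin and 3.61, 3.63 and 3.42 with resveratrol. GR24 arrays were the highest, and pinosylvin and resveratrol overlapped control. It rose with GR24, 0.56 (SE 0.10, adjusted p = 0.000909), and its values were 0.14 (adjusted p = 0.443) with pinosylvin and 0.14 (adjusted p = 0.425) with resveratrol. Nr1h3, the gene of LXR alpha, had signals of -7.39, -6.84 and -7.45 in control, -7.25, -6.80 and -7.24 with GR24, -7.36, -7.01 and -6.90 with pinosylvin and -7.43, -7.40 and -7.62 with resveratrol. None of the 12 signals was well above background, and it was the member left untested.

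In the fatty acid group GR24 lowered 3 of 9 genes and raised 2, near the 57.1% of all probes called. Pinosylvin lowered 6, where 8.27% of all probes were lower, and resveratrol lowered 2, where 8.99% were. Elovl6, which lengthens saturated and monounsaturated fatty acids, had levels of 1.56, 1.34 and 1.61 in control, -0.32, -0.35 and -0.56 with GR24, 0.14, 0.042 and -0.084 with pinosylvin and 0.32, 0.59 and 0.53 with resveratrol. Control arrays were the highest, GR24 the lowest, and no group overlapped another. It was 3.76-fold lower with GR24, -1.91 (SE 0.11, adjusted p = 1.38e-07), 2.77-fold lower with pinosylvin, -1.47 (SE 0.11, adjusted p = 8.71e-06), and 2.03-fold lower with resveratrol, -1.02 (SE 0.11, adjusted p = 0.000143), the largest change of any tested member with resveratrol. Lpin1, a phosphatidate phosphatase that also acts with transcription factors, read -4.82, -5.58 and -5.07 in control, -3.76, -1.58 and -3.85 with GR24, -4.73, -5.03 and -4.70 with pinosylvin and -4.53, -4.69 and -4.94 with resveratrol. GR24 replicate 2 was far above the other GR24 arrays, which were still above all remaining arrays, and the signal was well above background on only 1 of 3 control and 1 of 3 pinosylvin arrays. It rose with GR24, 2.09 (SE 0.50, adjusted p = 0.00424), and its values were 0.34 (adjusted p = 0.729) with pinosylvin and 0.44 (adjusted p = 0.648) with resveratrol. Without GR24 replicate 2 the GR24 difference was 1.35, on slide 2 alone 1.22, with normexp background correction 0.80 and in the deposited values 1.24.

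Acly, which makes cytosolic acetyl-CoA from citrate, rose with GR24, 0.29 (SE 0.088, adjusted p = 0.0153), and fell with pinosylvin, -0.54 (SE 0.088, adjusted p = 0.00206), and GR24 against pinosylvin gave 0.84 (adjusted p = 1.77e-05). The GR24 call was lost without control replicate 3 (0.25) or GR24 replicate 2 (0.22). Acss2, which makes acetyl-CoA from acetate, fell with pinosylvin, -0.95 (SE 0.11, adjusted p = 0.000252), with a GR24 value of 0.0039 (adjusted p = 0.982). Its resveratrol value, 0.18 (adjusted p = 0.336), had an adjusted p of 0.0304 (range over all alternatives 0.0304 to 0.703) with the replicate block. That value was 0.10 without resveratrol replicate 2 and 0.27 without resveratrol replicate 3. Scd, the desaturase that makes oleate, fell with GR24, -0.44 (SE 0.10, adjusted p = 0.00267), pinosylvin, -1.11 (SE 0.10, adjusted p = 3.13e-05), and resveratrol, -0.33 (SE 0.10, adjusted p = 0.0433). The resveratrol call was lost without control replicate 1 (-0.33) or 2 (-0.28), GR24 replicate 1 (-0.33), any 1 pinosylvin array (-0.33), or resveratrol replicate 1 (-0.32) or 3 (-0.28). Fads1 and Fads2 are desaturases of polyunsaturated fatty acids. Fads1 fell with GR24, -0.79 (SE 0.08, adjusted p = 1.17e-05), and pinosylvin, -0.35 (adjusted p = 0.0141), the latter lost without control replicate 1 (-0.32), and its resveratrol value, 0.15 (adjusted p = 0.263), had an adjusted p of 0.048 (range over all alternatives 0.0408 to 0.51) with the replicate block. Fads2 fell with pinosylvin, -0.48 (adjusted p = 0.00359), and its values were -0.18 (adjusted p = 0.1) with GR24 and 0.16 (adjusted p = 0.256) with resveratrol. Acaca and Fasn, the carboxylase and synthase that build palmitate, passed in none of the 3 comparisons, with GR24 values of -0.065 (adjusted p = 0.714) and -0.12 (adjusted p = 0.444). The Acaca probes disagreed: the second gave 0.67 (adjusted p = 0.00406) with GR24. For Fasn with pinosylvin, -0.34 (adjusted p = 0.101), normexp background correction gave -0.40, past the threshold.

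The stilbenes were compared directly at 60 µM and 24 h, as 1 of the 6 pairs of groups in the fit, each adjusted over all tested probes. Pinosylvin was below resveratrol in 24 of 39 members and above it in 3, where 14.5% of all probes were called (7.68% higher and 6.85% lower), and the median difference was -0.52 beside 0.022. On slide 1 and slide 2 the median was -0.51 and -0.59. With pinosylvin, 6 of 7 mevalonate enzymes and 10 of 11 sterol enzymes were lower. The widest gap was in Tm7sf2, -1.94 (95% interval -2.29 to -1.60, adjusted p = 4.4e-05), followed by Dhcr7, -1.39 (95% interval -1.74 to -1.05, adjusted p = 0.000286), and Acat2, -1.28 (95% interval -1.54 to -1.01, adjusted p = 8.98e-05). Stard4 differed by -1.18 (95% interval -1.49 to -0.87, adjusted p = 0.000404) and Acss2 by -1.13 (95% interval -1.38 to -0.88, adjusted p = 0.000132). Insig1 differed by -0.93 (95% interval -1.19 to -0.66, adjusted p = 0.000603). The 3 members higher with pinosylvin were the LXR targets: Abca1 by 1.24 (95% interval 0.87 to 1.62, adjusted p = 0.000936), Abcg1 by 0.80 (95% interval 0.45 to 1.14, adjusted p = 0.00707) and Mylip by 0.53 (95% interval 0.30 to 0.76, adjusted p = 0.00681). The Abca1 gap was 0.64 with normexp and 0.74 in the deposited values, and the Abcg1 call was lost on slide 1 alone (0.88). Elovl6 differed by -0.45 (95% interval -0.68 to -0.21, adjusted p = 0.0198), a call lost without pinosylvin replicate 2 (-0.45) or 3 (-0.39) or resveratrol replicate 2 (-0.39) or 3 (-0.42), with the mean over its probes (-0.32), on slide 1 alone (-0.36) and with dim probes kept in the adjustment. The Mylip call was lost when the pinosylvin and resveratrol arrays were fitted alone.

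The remaining 12 members did not pass between the stilbenes, which does not show that the compounds act alike on them. The intervals were narrow for some: Srebf2 differed by -0.16 (95% interval -0.31 to -0.01, adjusted p = 0.151), Srebf1 by 0.15 (95% interval -0.063 to 0.36, adjusted p = 0.357), Insig2 by 0.092 (95% interval -0.077 to 0.26, adjusted p = 0.491) and Nr1h2 by -0.0073 (95% interval -0.24 to 0.22, adjusted p = 0.98). They were wider for Fdft1, -0.19 (95% interval -0.48 to 0.11, adjusted p = 0.403), and widest for Lpin1, -0.10 (95% interval -1.20 to 1.01, adjusted p = 0.937). Scap, Acaca, Fasn and Npc2 had intervals of -0.21 to 0.40, -0.40 to 0.19, -0.49 to 0.071 and -0.017 to 0.32. Mvk, -0.40 (95% interval -0.77 to -0.035, adjusted p = 0.14), had an adjusted p of 0.0081 (range over all alternatives 0.00469 to 0.347) with the replicate block, and Npc1, -0.21 (95% interval -0.39 to -0.023, adjusted p = 0.131), of 0.0348 (range over all alternatives 0.0272 to 0.308). Srebf2 passed only with the slide as a block, where the adjusted p was 0.0472 (range over all alternatives 0.0472 to 0.431).

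**Figure D3:**
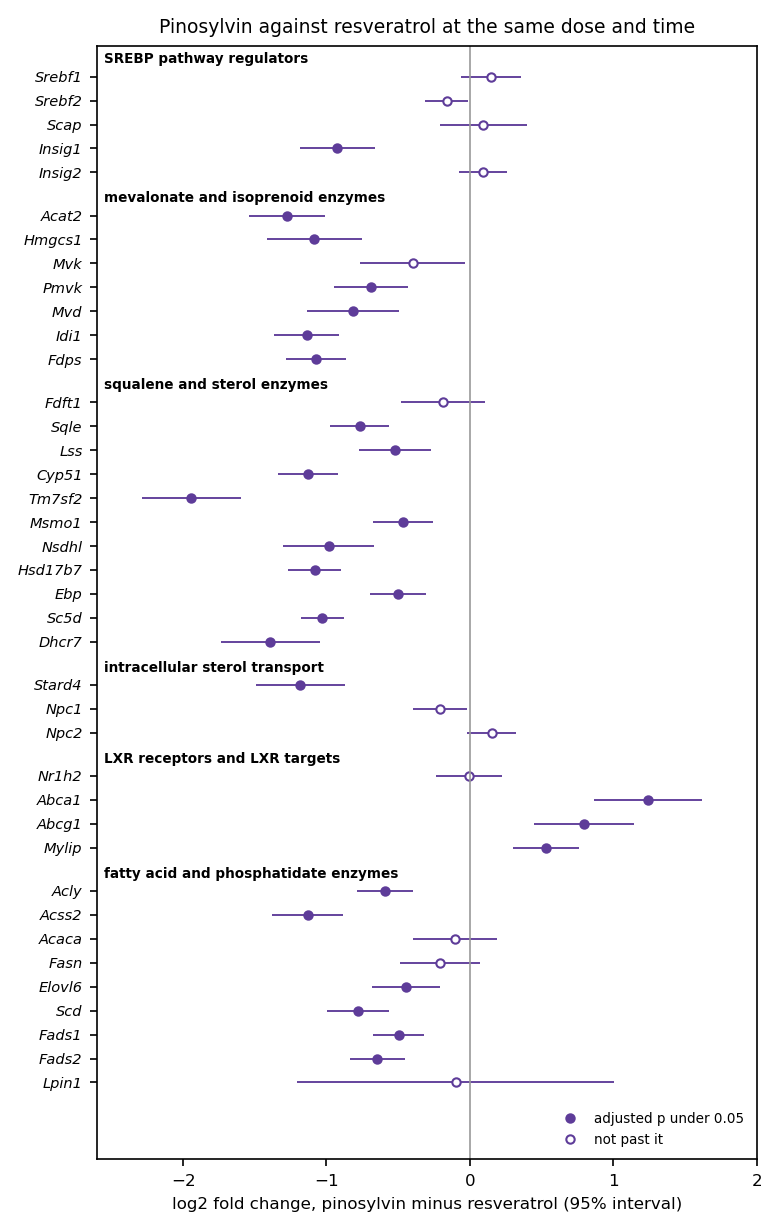
Log2 fold change of each tested member between pinosylvin and resveratrol at 60 µM and 24 h, with 95% intervals (3 arrays a group). Filled points passed an adjusted p of 0.05; 24 lie left of 0, lower with pinosylvin, and the 3 to the right are Abca1, Abcg1 and Mylip.

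GR24 is not a stilbene, and levels with GR24 differed from those with pinosylvin in 25 of 39 members, 19 higher and 6 lower, where 56.4% of all probes were called (29.6% higher and 26.8% lower). The median was 0.28 beside -0.0031 over all probes. The sterol enzymes Hsd17b7, Sc5d, Cyp51, Lss and Ebp were higher with GR24, between 1.86 and 0.98, and Tm7sf2 differed by 1.76 (95% interval 1.42 to 2.11, adjusted p = 4.83e-06). The sterol enzymes Fdft1, Msmo1, Nsdhl and Dhcr7 did not pass, with values from -0.14 to 0.20. Hmgcs1, -0.57 (95% interval -0.90 to -0.24, adjusted p = 0.00753), and Sqle, -0.57 (95% interval -0.77 to -0.36, adjusted p = 0.000404), were lower with GR24 than with pinosylvin. So was Mylip, -0.71 (95% interval -0.94 to -0.48, adjusted p = 0.000177), whereas Abca1 was higher, 1.11 (95% interval 0.74 to 1.49, adjusted p = 0.000247), or 0.70 with normexp. Acat2 was higher with GR24, 0.39 (95% interval 0.13 to 0.65, adjusted p = 0.0162), a call lost without GR24 replicate 2 (0.29) or pinosylvin replicate 3 (0.32). The following 5 members, which did not pass, did so with the replicate block: Insig1, -0.24, with an adjusted p of 0.00823 (range over all alternatives 0.00525 to 0.343), Idi1, 0.25, 0.0286 (range over all alternatives 0.00942 to 0.206), Dhcr7, 0.20, 0.0309 (range over all alternatives 0.0309 to 0.661), Stard4, 0.26, 0.026 (range over all alternatives 0.0139 to 0.457), and Abcg1, 0.28, 0.0172 (range over all alternatives 0.0172 to 0.376). Without 1 array Insig1 was -0.12 (GR24 replicate 3), Idi1 0.16 (pinosylvin replicate 1), Dhcr7 0.10 and 0.35 (GR24 replicates 2 and 3) or 0.31 and 0.11 (pinosylvin replicates 2 and 3), and Stard4 0.13 and 0.42 (GR24 replicates 2 and 3). Against resveratrol GR24 was higher in 12 and lower in 13 of 39 members, where 51.4% of all probes were called (27.4% higher and 23.9% lower), and with the percentile over spots in 13 and 12, where 35.9% of all probes were higher and 20.1% lower. With the replicate block 33 members were called, 13 higher and 20 lower, beside 61.2% of all probes (32.7% higher and 28.5% lower). The 8 gained were Pmvk, at 0.19, and Srebf2, Mvk, Fdft1, Cyp51, Tm7sf2, Npc2 and Acss2, from -0.33 to -0.13. Without GR24 replicate 3 Cyp51 was -0.038 and Acss2 -0.086. Over all alternatives the values nearest 0 were 0.11 in Pmvk, -0.051 in Srebf2, -0.14 in Mvk and -0.20 in Fdft1. In Cyp51, Tm7sf2, Npc2 and Acss2 they were -0.017, -0.07, -0.033 and -0.065. Abca1 differed by 2.36 (95% interval 1.98 to 2.73, adjusted p = 1.37e-06), or 1.33 with normexp, and Hmgcs1 by -1.66 (95% interval -1.99 to -1.32, adjusted p = 6.99e-06).

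Another 39 genes of lipid pathways, listed by function with earlier results of these data known, were counted beside the members, and 35 were tested. GR24 raised 13 and lowered 8, near the shares of all probes (31.5% higher and 25.5% lower). Pinosylvin raised 6 and lowered 4, where 8.28% and 8.27% of all probes were called, and resveratrol raised 5 and lowered 5, where 7.99% and 8.99% were. With GR24 the largest rises were in Gpam, which starts glycerolipid synthesis, 1.47 (adjusted p = 4.69e-08), the transcription factor Mlx, 0.91 (adjusted p = 1.71e-06), and Rxra, the partner of LXR, 0.83 (adjusted p = 0.000498), and the largest falls in Hacd1, -1.42 (adjusted p = 4.08e-08), Vldlr, -0.65 (adjusted p = 0.000983), and Lpin2, -0.45 (adjusted p = 0.0183). With pinosylvin Cyp27a1, 0.68 (adjusted p = 0.00111), and Ch25h, 0.66 (adjusted p = 0.0132), which make oxysterols, and Vldlr, 0.59 (adjusted p = 0.00854), rose most. Erg28, a scaffold of the sterol demethylation enzymes, -1.03 (adjusted p = 2.94e-06), the lipoprotein receptor Scarb1, -1.01 (adjusted p = 1.71e-05), and Tmem97, -0.58 (adjusted p = 0.00117), fell most. With resveratrol Ch25h, 0.64 (adjusted p = 0.016), Me1, 0.61 (adjusted p = 0.00026), and Vldlr, 0.54 (adjusted p = 0.0134), rose most, and Scarb1, -0.52 (adjusted p = 0.00157), Erg28, -0.47 (adjusted p = 0.000685), and Lpin3, -0.44 (adjusted p = 0.00198), fell most.

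Promoter sequences of 32 of the 40 members, 33 promoters in all, were matched in a RefSeq table of build GRCr8 that holds 33469 promoters of 300 bases, 250 before and 50 after each gene's start. Not matched were Pmvk, Fdft1, Sqle, Stard4, Abcg1, Acaca, Fasn and Elovl6. Both strands were searched. CCAAT, the letters bound by NF-Y, a partner of SREBP, was in 23 of 33 member promoters (69.7%) and 37.5% of all promoters. GGGCGG, bound by Sp1, was in 26 (78.8%) and 33.1%, and the E-box CACGTG in 4 (12.1%) and 6.42%. The sterol regulatory element letters TCACNCCAC were in 0 of 33 and 1.12%, and the exact direct repeat of AGGTCA with 4 letters between, the form bound by LXR with its partner, in 0 and 0.00598%. The shares of all promoters were taken over the whole table, with no selection of genes by expression. Of the 40 members, 38 were well above background on all 12 arrays, and shares among expressed genes were not taken. A match describes the letters and is no shown binding site, and a missing match says only that these letters are not in this window. Dhcr7, Acat2, Cyp51 and Abca1 also moved strongly, have no CCAAT in this window and are not printed. The 250 bases before the start are printed for 6 members chosen among those with CCAAT, which is in capitals, as is ATTGG where the match is on the other strand. The stretch for Hmgcs1 is chr2:53382054-53382303 (plus strand), Idi1 chr17:66547525-66547774 (minus), Fdps chr2:176804817-176805066 (minus), Tm7sf2 chr1:212789542-212789791 (minus), Insig1 chr4:8057770-8058019 (minus) and Mylip, which rose with pinosylvin where the others fell, chr17:19514472-19514721 (minus).
Hmgcs1: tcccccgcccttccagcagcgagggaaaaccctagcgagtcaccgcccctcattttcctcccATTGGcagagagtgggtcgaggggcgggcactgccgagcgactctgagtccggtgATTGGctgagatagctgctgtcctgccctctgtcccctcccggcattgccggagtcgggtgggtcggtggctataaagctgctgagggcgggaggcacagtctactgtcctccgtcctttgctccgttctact
Idi1: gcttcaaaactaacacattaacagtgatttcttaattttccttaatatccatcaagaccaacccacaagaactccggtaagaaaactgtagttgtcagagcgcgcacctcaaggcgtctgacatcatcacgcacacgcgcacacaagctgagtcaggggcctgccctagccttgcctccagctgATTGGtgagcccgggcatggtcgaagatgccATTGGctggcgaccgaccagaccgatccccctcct
Fdps: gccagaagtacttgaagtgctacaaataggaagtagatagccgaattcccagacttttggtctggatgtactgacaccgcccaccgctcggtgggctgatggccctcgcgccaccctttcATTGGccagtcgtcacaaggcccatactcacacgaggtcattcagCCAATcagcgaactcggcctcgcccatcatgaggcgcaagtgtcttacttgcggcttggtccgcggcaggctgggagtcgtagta
Tm7sf2: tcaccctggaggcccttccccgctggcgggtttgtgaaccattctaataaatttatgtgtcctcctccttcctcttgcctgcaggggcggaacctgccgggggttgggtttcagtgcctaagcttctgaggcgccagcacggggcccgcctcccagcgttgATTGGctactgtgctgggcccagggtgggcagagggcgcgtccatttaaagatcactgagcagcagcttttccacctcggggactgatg
Insig1: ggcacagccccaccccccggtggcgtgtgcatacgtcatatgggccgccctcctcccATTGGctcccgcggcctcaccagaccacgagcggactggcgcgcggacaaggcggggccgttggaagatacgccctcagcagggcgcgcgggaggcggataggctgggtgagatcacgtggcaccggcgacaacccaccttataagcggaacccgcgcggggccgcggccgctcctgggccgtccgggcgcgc
Mylip: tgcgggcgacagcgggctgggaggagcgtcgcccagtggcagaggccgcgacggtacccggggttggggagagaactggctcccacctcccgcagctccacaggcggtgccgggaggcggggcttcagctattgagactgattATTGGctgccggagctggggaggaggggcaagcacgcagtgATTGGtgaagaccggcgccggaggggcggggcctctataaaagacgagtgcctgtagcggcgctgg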

How the data were processed

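Total RNA from 12 cultures was hybridised to 1-colour rat arrays, and 3 arrays formed each group per the labels. The authors deposited scanner intensity values, background-subtracted by Agilent Feature Extraction 12.0.0.7. They also deposited a table of normalized log2 values of 25848 probes, with column medians of 9.21 to 9.24, which is log2 and not centred by gene; its background correction and filter are not given in the sources used here. Values used here are log2 of the processed signal minus each array's 75th percentile over probes, which lay between 720 and 1038 intensity units. Spots of 1 probe were averaged, and outlier spots and controls left out; no spot was saturated. Of the tested probes 87.4% were well above background on all 12 arrays. Probe accessions were named through RefSeq genes of GRCr8, which named 21109 of 45598 probes (46.3%).

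One limma fit (version 3.58.1, R 4.3.3) of all 12 arrays with empirical Bayes spread gave every comparison, and the code was tested on simulated data. The labels give 6 days of differentiation and the study's methods 7. Replicate numbers are shared between groups, and no label pairs the arrays by them. Deviations of same-numbered arrays from their group means correlated between 0.227 and 0.831 over all 18 pairs. Arrays of different numbers were not correlated, and replicate 3 was on a slide of its own in every group. Pairing by number was therefore not tested apart from the slide. Values on every array are given for the SREBP regulators, the LXR receptors and members among the 5 largest increases or decreases called in a comparison with control, other members by range. The members and lists were chosen with earlier results of these data known. Alternatives were quantile normalization, normexp on the median signals (offset 50; mean signals were not used here), the deposited table, other filters, fits of 6 arrays, blocks for replicate or slide, each slide, each array left out, the mean over probes and, chosen after seeing the data, the percentile over spots. The number of arrays limits the precision.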

Additional observations from a re-analysis of the deposited data

How the results depend on the processing

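The direction of every member median was kept under all alternatives. With no filter on dim probes 2409 probes were called for pinosylvin against control in place of 4019, 2680 for resveratrol in place of 4123 and 1975 for pinosylvin against resveratrol in place of 3528, and 3 members for resveratrol in place of 9. Fits of only the 6 arrays compared called 2479 probes for pinosylvin and 5 members for resveratrol. With the replicate number as a block 6947 probes were called for pinosylvin, 6769 for resveratrol and 6323 between the stilbenes, 18 members for resveratrol and 33 for GR24 against resveratrol in place of 25. It changed the calls of 29 member results, all gained, and no other call of a member. The slide as a block called 7074, 6869 and 6443 probes, and 19 members for resveratrol. Leaving out 1 array at a time gave 3 to 12 members for resveratrol and 2148 to 3683 probes between the stilbenes, with 2148 without pinosylvin replicate 2, 2237 without resveratrol replicate 2 and 2311 without resveratrol replicate 3. Members called without 1 array ranged 26 to 28 for GR24, 28 to 31 for pinosylvin, 24 to 27 for GR24 against pinosylvin, 22 to 26 for GR24 against resveratrol and 26 to 27 between the stilbenes. The mean over a gene's probes turned Acaca from -0.07 to 0.30 for GR24 against control and from -0.04 to 0.29 for GR24 against resveratrol, past the threshold both times, since its probes disagree. The 75th percentile over spots shifted the median of all probes by 0.11 for GR24 against resveratrol, where it called 8707 probes higher and 4875 lower in place of 6662 and 5811. Of the 234 results for single members, 17 lost a call and none gained one without the filter. Leaving out single arrays lost 74 calls and gained 19 over 2808 values. Slide 2 alone has 1 array a group and gave values with no test. For the other moves the cause was not tested. Signal near background limits Lpin1 and Nr1h3.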
